A study of Mus musculus with 5 samples.

Results

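The 9 genes described here belong to the interferon response and to antigen presentation by the major histocompatibility complex (MHC) class I: B2m, H2-K1, H2-D1, Tap1, Psmb8, Psmb9, Irf7, Ifit3 and Isg15. They were found by gene name among the 33635 genes of the count table, each in a single row, and all 9 had enough counts to be tested. The question was whether retinas of eyes with form-deprivation myopia (FDM) differed from control retinas in these genes. None of the 9 differed between the groups at an unadjusted p of 0.05. Of all genes tested, 1.61% did. The largest difference was in Psmb9, an inducible subunit of the proteasome, whose level was 1.46-fold higher in FDM retinas (95% interval 0.986 to 2.17, unadjusted p = 0.0567 in edgeR). The levels of Irf7, Ifit3 and Isg15 were highest in 1 FDM library and within or below the control range in the other.

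The mice were wild-type males of C57BL/6J, an inbred laboratory strain. A translucent goggle was mounted over the right eye at postnatal day (P) 28 and worn for 2 weeks, and the retinas were collected at P42. The left eye of the same animals stayed uncovered and gave the control retinas, so that both groups shared genotype, sex and age. There were 2 FDM and 3 control libraries. The second FDM library has the number 3 in the count table and in the study's supplement but the number 2 in the sample labels, and it is called FDM 3 here. FDM 1 with Control 1 and FDM 3 with Control 3 were taken as the eyes of mouse 1 and mouse 3, since each control was the other eye of a deprived animal. No source used here states that equal numbers mark 1 animal, and by the labels the second pair would be FDM 3 with Control 2. With the pairs used here Control 2 had no partner, the study having left out an FDM library for its read duplication. The labels give a refractive error at P42 of 0.976 D for FDM 1 and 0.2745 D for FDM 3, against 2.4455, 3.1505 and 2.465 D for the control eyes.

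Interferons are secreted proteins that cells release on sensing viral nucleic acids or damage. They bind receptors that activate STAT proteins, and these, with interferon regulatory factors such as IRF7, switch on a large set of genes through the interferon-stimulated response element (ISRE) or, for type II interferon, the gamma-activated site (GAS). Among these genes are antiviral effectors such as Ifit3, which acts with other IFIT proteins on viral RNA, and Isg15, a ubiquitin-like protein that is attached to other proteins. Class I molecules, in turn, show peptides from inside the cell to cytotoxic T cells. Their heavy chains, such as H2-K1 and H2-D1, pair with the light chain beta-2-microglobulin (B2m). The peptides are cut by the proteasome, in which Psmb8 and Psmb9 replace constitutive subunits under interferon, and are carried into the endoplasmic reticulum by a transporter of which Tap1 is a subunit. The neural retina is an immune-privileged tissue, in which microglia and vascular cells are known for class I and interferon responses.

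The 9 genes have annotated start sites in RefSeq, and the 300 bases around each start (250 before, 50 after, GRCm38.p6) were searched on both strands for an ISRE core (GAAA, any 2 bases, GAAA) and a GAS core (TTC, any 3 bases, GAA). H2-K1 had 2 such windows. The ISRE letters stood in the windows of B2m, Ifit3 and Isg15, and in 3.44% of 32851 promoters of the same length. The GAS letters stood in the window of Psmb8, and in 8.30% of all promoters. The windows of H2-K1, H2-D1, Tap1, Psmb9 and Irf7 held neither run of letters. A match of letters describes the sequence and does not show that a factor was bound. The stretches with ISRE letters are shown, since these 3 genes stand for the class I branch and the antiviral branch, and capitals mark the matching bases.
B2m, chr2:122147528-122147577, plus strand: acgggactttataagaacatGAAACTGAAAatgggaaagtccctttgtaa
Ifit3, chr19:34583353-34583436, plus strand: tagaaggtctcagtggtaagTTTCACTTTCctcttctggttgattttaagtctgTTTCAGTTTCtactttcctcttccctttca
Isg15, chr4:156200855-156200916, minus strand: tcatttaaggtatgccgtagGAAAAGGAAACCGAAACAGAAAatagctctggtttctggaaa
In Ifit3 both matches read on the opposite strand, which gives them as TTTC followed by TTTC, and in Isg15 3 matches overlap in 1 run.

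Each library held between 40599047 and 56534931 estimated counts. Levels are given as counts per 1000000 of the library total (CPM) after scaling by the TMM factor, a correction for differences in composition between libraries. Markers of retinal neurons and glia summed to between 47608 and 60098 CPM in the 5 libraries, and 0 of the 16 differed between groups. Some libraries stood apart in markers of neighbouring tissues. Lens markers summed to 2109 CPM in FDM 3 and to between 2.98 and 21.2 CPM in the others. Markers of the retinal pigment epithelium (RPE) summed to 271 and 231 CPM in Control 2 and Control 3, against 59.1 to 78.7 CPM in the other 3 libraries. Muscle markers summed to 94.3 CPM in Control 3 and to between 24.4 and 27.1 CPM elsewhere. The 12 microglia markers, such as Cx3cr1 and Tmem119, summed to 65.4 and 62.0 CPM in FDM and to 64.7, 70.2 and 74.6 CPM in control libraries. None of the 12 passed the threshold. All 12 log2 fold changes were negative, with a median of −0.13, while 44.4% of all genes tested had a positive one. Lymphocyte markers summed to between 7.29 and 8.72 CPM, with Ncr1, a marker of natural killer cells, at 0 throughout. In whole retina, fewer cells of a type and less RNA per cell cannot be told apart.

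The class I chains were the most abundant of the 9 genes, and they were the least variable between libraries. B2m (ENSMUSG00000060802, chromosome 2: 122147686 to 122153083, plus strand of GRCm38) had 20.2 CPM in FDM 1 and 18.4 CPM in FDM 3, against 19.5, 22.3 and 22.5 CPM in Control 1, 2 and 3. FDM 3 was the lowest of the libraries, while FDM 1 lay above Control 1, so that the groups overlapped. The log2 fold change of B2m was −0.15 ± 0.10 (SE, 95% interval −0.39 to 0.09, unadjusted p = 0.175 in edgeR), and −0.085 without FDM 3. Patl2 overlaps B2m on the other strand, but 0 of the 811 50-base windows of B2m transcripts also occur in transcripts of other genes. H2-K1 (ENSMUSG00000061232, chromosome 17: 33996017 to 34000347, minus strand) had 27.0 and 26.1 CPM in the FDM libraries and 25.4, 26.8 and 26.7 CPM in the control libraries. These 5 values lay close together, with a coefficient of variation (CV) of 2.45%, the lowest of the 9 genes. For H2-K1 it was 0.01 ± 0.08, with a 95% interval from −0.17 to 0.19 (unadjusted p = 0.897 in edgeR).

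H2-D1 (ENSMUSG00000073411, chromosome 17: 35262730 to 35267499, plus strand), the other classical heavy chain of this strain, had 48.7 and 48.9 CPM in FDM and 49.4, 46.8 and 53.5 CPM in control retinas. Both FDM values lay within the range of the controls. Its log2 fold change was −0.03 ± 0.09, with a 95% interval from −0.24 to 0.18 (unadjusted p = 0.727 in edgeR). Per kilobase of exon, the mean level of B2m was 23.96 CPM per kb, that of H2-D1 19.2 and that of H2-K1 8.98, the highest 3 of the 9 genes. Together with 11 further heavy chain genes of the H2-T, H2-Q and H2-M families, H2-K1 and H2-D1 summed to 133 and 130 CPM in FDM and 133, 131 and 134 CPM in control libraries. The total of heavy chain transcripts therefore overlapped between the groups, with a control SD of 1.58 CPM. Of the 50-base windows of their transcripts, 9.63% in H2-K1 and 12.8% in H2-D1 also occur in other genes, mostly other heavy chains, so that reads can be split between these genes in the estimate.

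**Figure D1:**
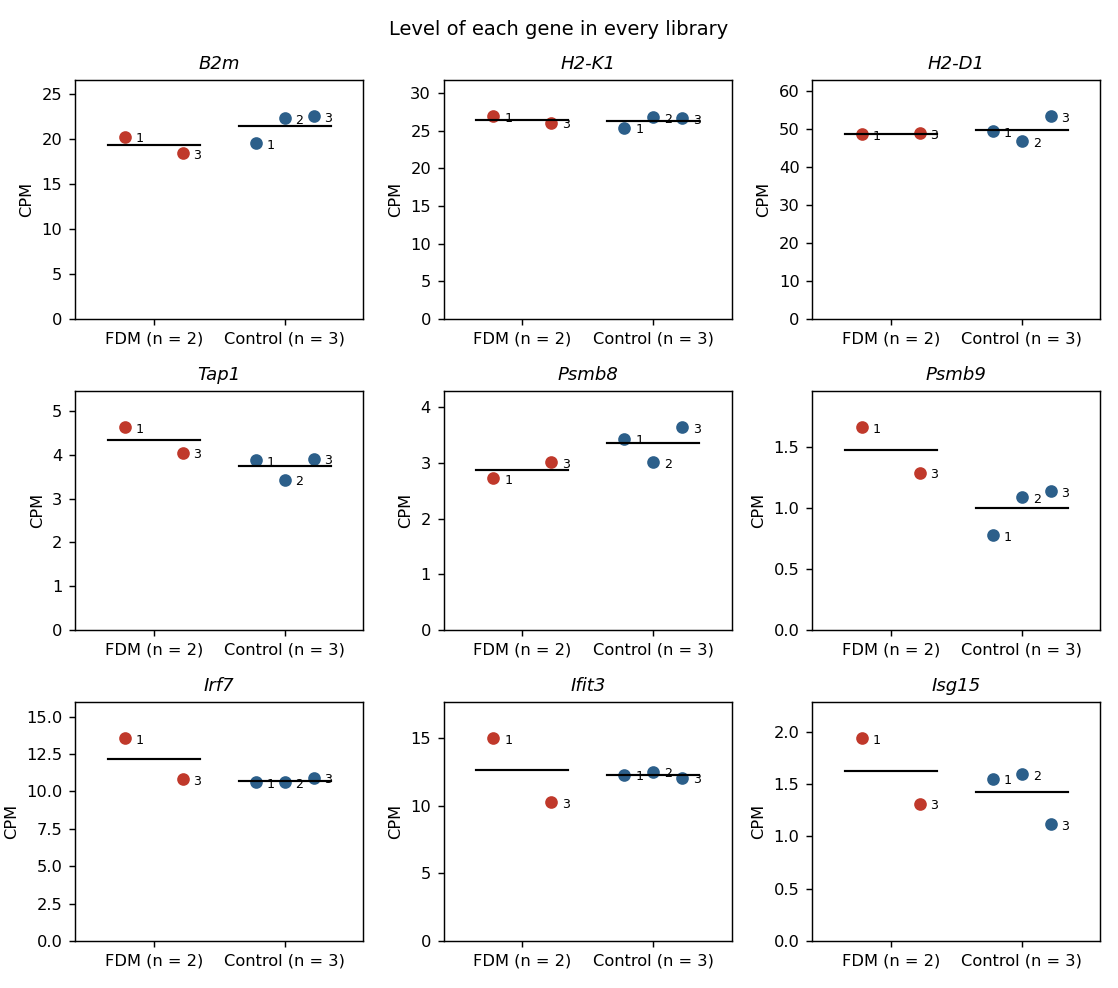
Level (CPM, linear axis from 0) of each of the 9 genes in the 2 FDM and 3 control libraries; each point is 1 library with its number, and the bar is the group mean. The points of H2-K1 and H2-D1 lie close together, both FDM points of Tap1 and Psmb9 lie above the controls and those of Psmb8 below, and FDM 1 stands above the other 4 libraries in Irf7, Ifit3 and Isg15.

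The genes of peptide supply were less abundant and differed in direction. Tap1 and Psmb9 were higher in both FDM libraries than in any control, and Psmb8 was lower in both, but no difference passed the threshold. Across all genes tested, 3.97% lay above all controls in both FDM libraries and 6.67% lay below. Tap1 (ENSMUSG00000037321, chromosome 17: 34187553 to 34197225, plus strand) had 4.64 and 4.05 CPM in FDM and 3.88, 3.44 and 3.92 CPM in control retinas. FDM 3 lay just above Control 3. Tap1 had a log2 fold change of 0.21 ± 0.14 (95% interval −0.12 to 0.55, unadjusted p = 0.177 in edgeR), and of 0.12 without FDM 1.

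Psmb9 (ENSMUSG00000096727, chromosome 17: 34181987 to 34187764, minus strand), the inducible counterpart of Psmb6, had 1.66 and 1.29 CPM in FDM against 0.776, 1.09 and 1.14 CPM in control retinas. These levels rest on 72 and 62 counts in FDM and on 31, 62 and 54 counts in the controls. FDM 1 was the highest library and Control 1, the other eye of that mouse, the lowest. Between the groups the log2 fold change was 0.55 ± 0.24 (SE, 95% interval −0.02 to 1.12), with unadjusted p = 0.0567 and adjusted p = 1.0 over all genes tested in edgeR. The call depended on the processing. When more than 10 counts were asked in all libraries rather than in 2, the unadjusted p was 0.0468 in edgeR, and with DESeq2 it was 0.123. A block by mouse gave 0.0541 in edgeR. A block by the numbers of the labels gave 0.0283 in edgeR, a fit in which 2.52% of all genes passed. That block pairs FDM 3 with Control 2, which the refractive errors do not bear out. Without FDM 1 the log2 fold change of Psmb9 was 0.36 and without Control 1 it was 0.41. Microglia markers summed to at most 65.4 CPM in FDM libraries and at least 64.7 CPM in controls, and their part in the Psmb9 values was not tested.

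Psmb8 (ENSMUSG00000024338, chromosome 17: 34197721 to 34201454, plus strand), the inducible counterpart of Psmb5, had 2.72 and 3.01 CPM in FDM and 3.43, 3.02 and 3.64 CPM in control retinas. FDM 3 and Control 2 were nearly equal, so the separation of the groups rested on a gap smaller than the spread within either group. Psmb8 had a log2 fold change of −0.23 ± 0.16 (95% interval −0.60 to 0.14, unadjusted p = 0.192 in edgeR). The inducible subunits were scarce beside the constitutive ones that they replace. Per kilobase, the level of Psmb8 was 1.13% and 1.16% of that of Psmb5 in FDM and 1.38%, 1.22% and 1.23% in control libraries. The level of Psmb9 was 1.05% and 0.784% of that of Psmb6 in FDM and 0.443%, 0.684% and 0.636% in controls. The length used was that of all annotated exons of a gene together. It was 3381 bases for Psmb8 against 899 for Psmb5, and 3660 for Psmb9 against 1872 for Psmb6. Without division by length these percentages would be higher, with Psmb5 at 64.2 to 79.0 CPM and Psmb6 at 81.3 to 91.4 CPM. The constitutive catalytic subunits themselves had log2 fold changes of −0.07 (Psmb5), −0.08 (Psmb6) and −0.09 (Psmb7), none past the threshold.

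The third inducible subunit, Psmb10, is not in the same gene cluster. It had 9.41 and 7.51 CPM in FDM and 7.39, 7.67 and 9.64 CPM in control retinas, and per kilobase stood at between 17.3% and 23.2% of its counterpart Psmb7. The annotated exons cover 1705 bases in Psmb10 and 3421 in Psmb7, and Psmb7 had 81.3 to 93.6 CPM. Part of the contrast with Psmb8 and Psmb9 thus rests on exon length. The groups overlapped in Psmb10, with a log2 fold change of 0.04 ± 0.16 (unadjusted p = 0.822 in edgeR). Thus of the 3 inducible subunits 1 was higher, 1 lower and 1 overlapping in FDM, and none passed the threshold.

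Tap1, Psmb8 and Psmb9 lie side by side on chromosome 17. The RefSeq starts of Psmb9 and Tap1 are 226 bases apart on opposite strands, and the annotated genes overlap. The library kit does not mark the strand, so reads from the overlap cannot be told apart. Of 50-base windows, 4.19% in Psmb9 and 2.88% in Tap1 are shared between them, and 11.6% of those in Psmb8 are shared with the antisense gene Gm20496. Summed over both, Psmb9 and Tap1 had 6.30 and 5.34 CPM in FDM and 4.66, 4.53 and 5.05 CPM in control libraries. Since each gene alone was above all controls in both FDM libraries, the sum had to be so too. The sum therefore says nothing more about the groups.

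Irf7, Ifit3 and Isg15, the interferon-induced members, shared a pattern in which FDM 1 was the highest of the 5 libraries and FDM 3 was not. Irf7 (ENSMUSG00000025498, chromosome 7: 141262706 to 141266481, minus strand), the transcription factor that amplifies type I interferon, had 13.5 CPM in FDM 1 and 10.8 CPM in FDM 3, against 10.6, 10.6 and 10.9 CPM in the controls. The controls were almost equal, with an SD of 0.174 CPM, and FDM 3 lay among them. Irf7 overlaps Phrf1 on the other strand, but 0 of the 4408 50-base windows of its transcripts also occur in transcripts of other genes. Irf7 had a log2 fold change of 0.18 (unadjusted p = 0.174 in edgeR), and without FDM 1 it was 0.01.

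Ifit3 (ENSMUSG00000074896, chromosome 19: 34583531 to 34588731, plus strand) had 15.0 CPM in FDM 1 and 10.3 CPM in FDM 3, with 12.3, 12.5 and 12.1 CPM in the controls. The FDM libraries were thus the highest and the lowest of the 5, on either side of controls with an SD of 0.238 CPM. The log2 fold change was 0.04 ± 0.16 (unadjusted p = 0.830 in edgeR), and it was −0.26 without FDM 1 and 0.29 without FDM 3. Ifit3 has a near-identical copy, Ifit3b, and 51.2% of its 50-base windows also occur there, so the estimate has to divide reads between the copies. Their sum was 22.5 and 16.1 CPM in FDM and 18.1, 18.2 and 18.9 CPM in control libraries. The sum kept the order of the FDM libraries around the controls.

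Isg15 (ENSMUSG00000035692, chromosome 4: 156199424 to 156200818, minus strand) had 1.94 CPM in FDM 1 and 1.31 CPM in FDM 3, against 1.55, 1.596 and 1.12 CPM in the controls. FDM 3 lay within the control range. With 53 to 91 counts a library, it was among the least precise of the genes. The log2 fold change of Isg15 was 0.19 ± 0.26 (95% interval −0.41 to 0.79, unadjusted p = 0.486 in edgeR), and it was −0.12 without FDM 1 and 0.046 without Control 3.

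**Figure D2:**
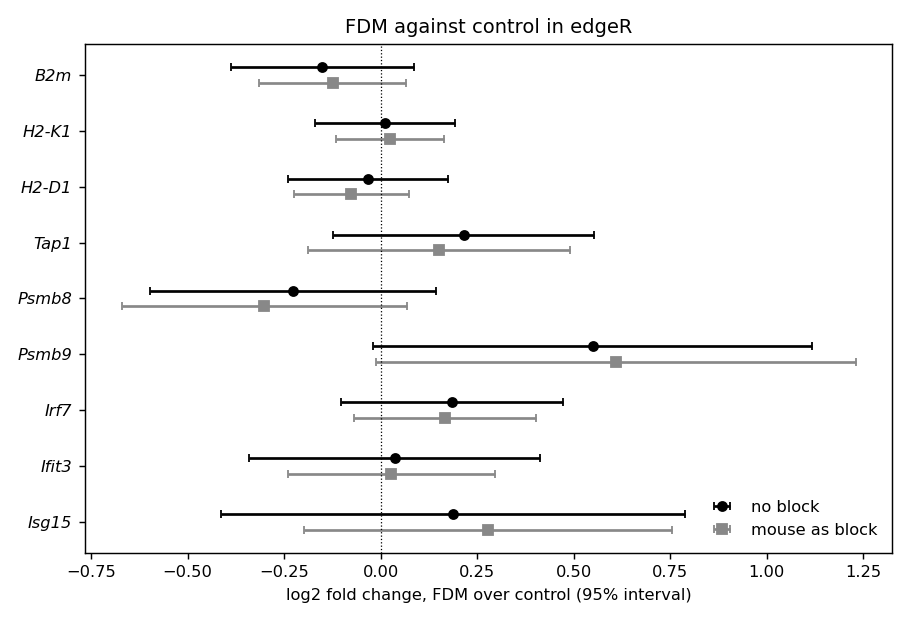
Log2 fold change of FDM over control (x axis) with its 95% interval for each of the 9 genes, from edgeR without a block (black circles) and with the mouse as a block (grey squares). All 9 intervals without a block include 0, and Psmb9 lies farthest to the right at 0.55.

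Over the 9 genes, 6 log2 fold changes were positive and 3 negative, while 44.4% of all genes tested were positive. Their median was 0.04 beside −0.01 over all genes tested. In 6 genes FDM 1 was the highest library, and in the other 3 it was Control 3. Of all genes tested, 11.6% were highest in FDM 1 and 20.2% in Control 3. The intervals set what size of difference these 5 libraries could show. For H2-K1 the fold of FDM over control lay between 0.888 and 1.14, for Irf7 between 0.931 and 1.39, and for Isg15 between 0.751 and 1.73.

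The eyes taken as those of the same mouse were then set side by side. Each eye gave 1 library, so that the intervals cover counting error only and no replicate check exists within a mouse. In mouse 1, 7 of the 9 genes were higher in the FDM eye, beside 44.6% of all genes tested, with a median log2 ratio of 0.26. In mouse 3, 3 were higher and 6 lower, with a median of −0.03, while 49.7% of all genes tested were higher. The direction was shared by both mice for 5 genes. Tap1, Psmb9 and Isg15 were higher and H2-D1 and Psmb8 lower in the FDM eye of each. The number for mouse 3 depended on the scaling, and was 4 with library totals and 5 with the normalized counts of the authors. The directions also depended on the pairing. Against Control 2, its partner by the labels, FDM 3 was lower in Isg15 (1.31 against 1.596 CPM). It was higher in H2-D1 (48.9 against 46.8 CPM) and in Irf7 (10.8 against 10.6 CPM). Tap1 and Psmb9 stayed higher, and Psmb8 was lower by a narrow gap.

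The counting intervals were computed only for the genes described here. The share of all genes tested with an interval that excludes 0 is therefore not known. Since these intervals leave out variation between eyes, excluding 0 does not mark a gene as unusual. In mouse 1 the counting interval excluded 0 for 3 genes. The log2 ratio of the FDM eye to the control eye was 1.097 for Psmb9 (0.47 to 1.75), 0.35 for Irf7 (0.17 to 0.53) and 0.29 for Ifit3 (0.11 to 0.46). All 3 were higher in the FDM eye. In mouse 3 it excluded 0 for 3 genes, all of them lower in the FDM eye. The log2 ratio was −0.29 for B2m (−0.42 to −0.16), −0.24 for Ifit3 (−0.41 to −0.06) and −0.13 for H2-D1 (−0.21 to −0.05). Ifit3 thus differed between the eyes in opposite directions in the 2 mice. Against Control 2, FDM 3 was also lower in B2m and Ifit3 but higher in H2-D1. For Psmb9, mouse 3 gave 0.18 (−0.37 to 0.73), and Irf7 gave −0.01 (−0.19 to 0.17), a ratio that was 0.01 with library totals. Whether the mice differed was not tested. FDM 3 was also the library with lens markers, and Control 3 held more RPE and muscle markers than FDM 3, while FDM 1 and Control 1 summed to 3.07 and 2.98 CPM in lens, 71.6 and 78.7 CPM in RPE and 24.5 and 24.4 CPM in muscle markers. The microglia markers were lower in the FDM eye of mouse 3 for 11 of 12 genes, with sums of 62.0 against 74.6 CPM and a median log2 ratio of −0.40, beside the lower B2m, H2-D1 and Ifit3. In mouse 1 these sums were 65.4 and 64.7 CPM, and 8 of the 12 genes were higher in the FDM eye. The part of any of these markers in the differences between the eyes was not tested.

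**Figure D3:**
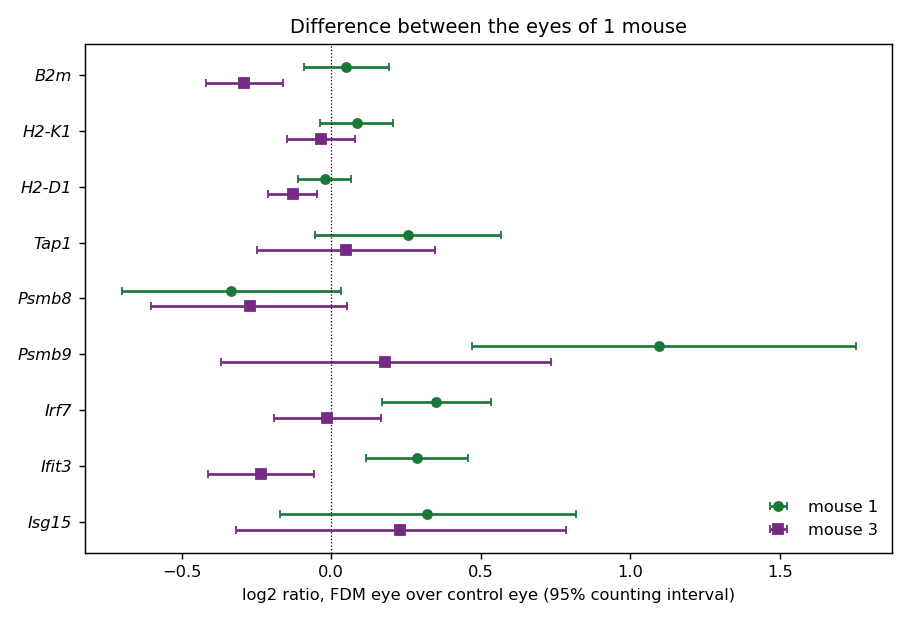
Log2 ratio of the FDM eye to the control eye of the same animal (x axis) with its 95% counting interval for the 9 genes, for mouse 1 (green circles) and mouse 3 (purple squares). Psmb9 in mouse 1 lies farthest from 0 at 1.097, and Ifit3 lies on opposite sides of 0 in the mice.

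The rest of the pathway was followed in 7 lists of 157 genes in all, of which 131 had enough counts to be tested. The filter could favour genes that are high in 1 group, so these counts describe the genes that passed it. Of the 131, 1 was higher and 1 lower in FDM at an unadjusted p of 0.05, none after adjustment. Of all genes tested, 0.453% were higher and 1.16% lower. With the mouse as a block the number in the lists was 11, beside 7.23% of all genes. With the label numbers as a block it was 3, beside 2.52% of all genes.

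The list of interferon-induced effectors held 65 tested genes of 69. The gene that rose was Dhx58, which encodes the RNA helicase LGP2 and regulates RNA sensing. Its level was 2.51 and 2.27 CPM in FDM and 1.78, 1.88 and 1.85 CPM in control retinas, with a log2 fold change of 0.38 ± 0.16 (unadjusted p = 0.0480 in edgeR, 0.0675 with the mouse as a block). The gene that fell was Ifitm2, a membrane protein that hinders virus entry. Its level was 1.91 and 2.20 CPM in FDM and 2.23, 3.33 and 4.21 CPM in controls, with a log2 fold change of −0.66 ± 0.27 (unadjusted p = 0.0429 in edgeR). Ifitm2 was high in Control 2 and Control 3, the libraries with more RPE markers, and the part of these markers was not tested. Ifitm2 is also in the study's own table of changed genes from these samples, so its direction is not independent evidence. With a control library left out, the unadjusted p in edgeR ran from 0.0558 to 0.0905 for Dhx58 and from 0.00304 to 0.137 for Ifitm2. With any library left out, the log2 fold change ran from 0.30 to 0.45 for Dhx58 and from −0.87 to −0.43 for Ifitm2. Both calls lay close to the threshold. Dhx58 lost its call with each of the 5 libraries left out, with DESeq2 (unadjusted p = 0.135), without the count filter (unadjusted p = 0.0678 in edgeR) and with limma on the normalized counts of the authors, where its log2 fold change was 0.17 (unadjusted p = 0.343). Ifitm2 kept its call in these last 3 fits, lost it with library totals (unadjusted p = 0.05002 in edgeR) and with the label numbers as a block (unadjusted p = 0.0731 in edgeR), and had a log2 fold change of −0.43 without Control 3. The median log2 fold change of the list was 0.08, and 42 of the 65 genes were positive. Per kilobase, the highest of the list was Adar, the RNA-editing adenosine deaminase, with 135 to 151 CPM in FDM and 124 to 145 CPM in controls.

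What the list shared with Irf7, Ifit3 and Isg15 was the position of FDM 1. FDM 1 was the highest library for 39 of the 65 effectors, or 60.0%, beside 11.6% of all genes tested. In mouse 1, 55 effectors (84.6%) were higher in the FDM eye, beside 44.6% of all genes, and the median log2 ratio was 0.28. In mouse 3, 27 (41.5%) were higher, beside 49.7% of all genes, with a median of −0.04. With the normalized counts of the authors these numbers were 51 in mouse 1 and 35 in mouse 3. The median log2 fold change of the list between the groups therefore followed the FDM libraries, and was 0.20 without FDM 3 and −0.08 without FDM 1. Relative to the mean of the 5 libraries, the median effector stood at 0.18 in FDM 1 and at −0.11 in FDM 3 on the log2 scale, with −0.05, 0.04 and −0.05 in the controls. Oas1a, an enzyme that makes the activator of RNase L, was the farthest above its mean in FDM 1, by 0.80, and Cxcl10, a chemokine, was 1.54 above its mean in Control 1. These 2 genes were chosen after their values were seen. In FDM 1 and Control 1, the microglia markers summed to 65.4 and 64.7 CPM, endothelial markers to 379 and 381 CPM and lymphocyte markers to 8.10 and 8.72 CPM. The part of these cells in the position of FDM 1 was not tested.

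**Figure D4:**
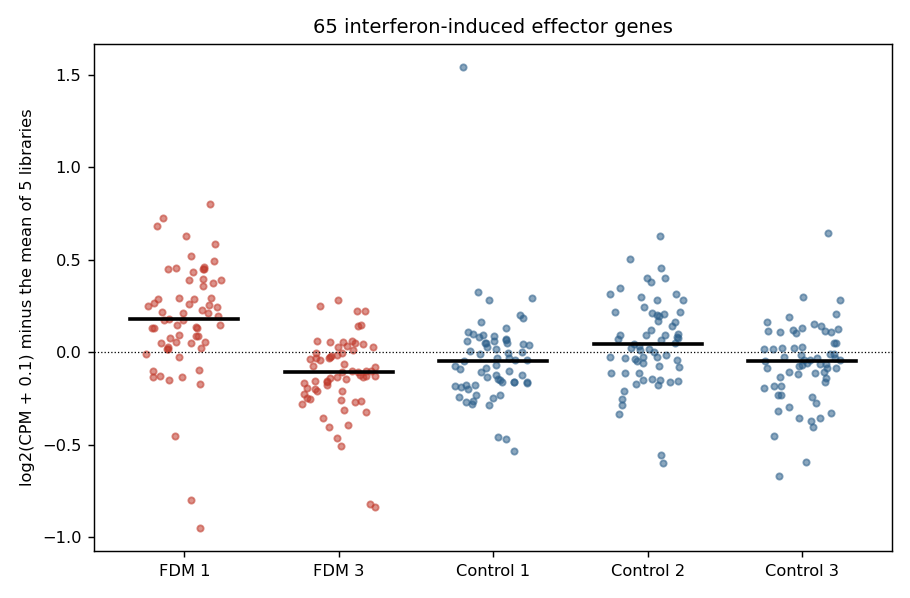
Level of each of the 65 tested interferon-induced effectors in each library, as log2(CPM + 0.1) minus the mean of the gene over the 5 libraries; each point is 1 gene (FDM red, control blue) and the bar is the median. The median is 0.18 in FDM 1, where 53 genes lie above their mean, and −0.11 in FDM 3, where 16 do.

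Interferon transcripts themselves were near the limit of detection. Of 21 ligand genes, 14 were at 0 in all 5 libraries, and 20 had at most 3 counts in every library. A count of 0 allows up to 3 counts, or between 0.0526 and 0.0751 CPM, in a library. The 1 ligand tested, Ifnz, a member of the type I family, had 0.115 and 0.333 CPM in FDM and 0.225, 0.246 and 0.105 CPM in controls. Its groups overlapped, with unadjusted p = 0.698 in edgeR.

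The remaining lists held no gene past the threshold without a block, and their smallest p-values are given with the gene they belong to. In the list of 8 proteasome genes that was Psmb7 (unadjusted p = 0.355 in edgeR), and Psmb5 was the most abundant per kilobase. Among 17 tested genes of class I chains and loading, Nlrc5, the transactivator of class I genes, had 1.61 and 0.936 CPM in FDM and 0.726, 1.02 and 0.695 CPM in controls. FDM 1 was again the highest, and FDM 3 lay below Control 2. Its log2 fold change was 0.63 ± 0.31 (unadjusted p = 0.0762 in edgeR), and with the mouse as a block 0.80 (unadjusted p = 0.0184 in edgeR). With the label numbers as a block it was 0.49 (unadjusted p = 0.113 in edgeR). In fits with no block, the value of Nlrc5 was 0.19 without FDM 1 and 0.98 without FDM 3. Without Control 2 it was 0.85 (unadjusted p = 0.0375 in edgeR). Calr, a chaperone of class I loading and the most abundant of that list per kilobase, had 317 and 320 CPM in FDM and 353, 330 and 359 CPM in controls. Its log2 fold change was −0.12 (unadjusted p = 0.168 in edgeR, 0.00941 with the mouse as a block and 0.423 with the label numbers as a block).

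Among 20 tested genes of interferon receptors and signalling, Socs1, a feedback inhibitor of JAK kinases, had 0.646 and 0.790 CPM in FDM and 0.476, 0.579 and 0.358 CPM in controls. The groups did not overlap, and the log2 fold change was 0.60 ± 0.29 (unadjusted p = 0.0786 in edgeR). The unadjusted p of Socs1 in edgeR was 0.0466 with the mouse as a block and 0.0429 without Control 2. With the label numbers as a block it was 0.240. Irf3, the constitutive relative of Irf7 and the most abundant of the list per kilobase, had 82.7 and 87.6 CPM in FDM and 90.7, 79.1 and 78.7 CPM in controls. Among 13 sensors and adaptors, Tlr7, a receptor for single-stranded RNA, had 2 and 6 counts in FDM and 5, 13 and 13 counts in controls. Tlr7 had a log2 fold change of −1.26 ± 0.61 (unadjusted p = 0.0755 in edgeR). At these counts the value of Tlr7 was −0.76 without FDM 1, −2.14 without FDM 3 (unadjusted p = 0.0484 in edgeR) and −1.49 without Control 1 (unadjusted p = 0.0402 in edgeR). In limma on the normalized counts of the authors it was −2.04 with a pseudocount of 1 (unadjusted p = 0.0438). With a pseudocount of 0.1 it was −2.42 (unadjusted p = 0.0398 in limma). Other fits of Tlr7 did not pass, with an unadjusted p of 0.196 in DESeq2. In edgeR the unadjusted p was 0.103 with the mouse as a block, 0.190 with the label numbers as a block and 0.194 without Control 3. Tbk1, the kinase that activates IRF3 and the most abundant of these per kilobase, had 47.5 and 49.6 CPM in FDM and 47.4 to 55.6 CPM in controls.

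Class II genes, which present peptides to helper T cells, had a median log2 fold change of −0.94, the lowest of the 7 lists, and none of 7 passed the threshold without a block. The median was −0.24 without Control 3, −0.47 without FDM 1 and −1.35 without FDM 3. Blocking by mouse, 4 of 7 class II genes passed, all lower in FDM, beside 7.23% of all genes. These were Cd74, the invariant chain (unadjusted p = 0.00691 in edgeR), H2-Eb1, the alpha chain H2-Aa (unadjusted p = 0.0376 in edgeR) and H2-DMb1 (unadjusted p = 0.0387 in edgeR). Cd74, H2-Aa and H2-DMb1 were named after their values were seen. With the label numbers as a block no class II gene passed. The unadjusted p in edgeR was then 0.304 for Cd74, 0.154 for H2-Eb1, 0.662 for H2-Aa and 0.152 for H2-DMb1. H2-Eb1, a class II beta chain, had 0.254 and 0.395 CPM in FDM and 0.451, 0.544 and 0.948 CPM in controls, at 11 to 45 counts a library. Its log2 fold change was −0.99 ± 0.42 (unadjusted p = 0.0501 in edgeR, 0.0133 with the mouse as a block), and it was −0.61 without Control 3. The call of H2-Eb1 was gained without Control 1 (unadjusted p = 0.0242 in edgeR) and under 2 other count filters. H2-DMa, which helps load class II and was the most abundant of the list per kilobase, had 3.21 and 3.85 CPM in FDM and 2.98 to 3.63 CPM in controls. Class II counts were highest in Control 3, at a sum of 10.7 CPM, which was also the highest library in microglia and muscle markers. The part of these markers was not tested. The log2 fold changes of the class I chains B2m, H2-K1 and H2-D1 lay between −0.15 and 0.01, and the difference between the classes was not tested.

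The test compared 2 libraries with 3, and the controls were eyes of the same animals, so that a response common to both eyes could not be seen. The adjusted p in edgeR was 1.0 for all 9 genes. An exact permutation test over 5 libraries has 10 splits and could not go below a two-sided p of 0.2, which it reached for Tap1, Psmb8 and Psmb9.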

How the data were processed

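The authors sequenced poly-A RNA of the retinas as 50-base paired-end reads, trimmed them with Trimmomatic (version 0.39 per the labels), estimated transcript abundance with Salmon (1.10.1) on GRCm38 and deposited estimated counts per gene, already rounded to whole numbers. A second table that the authors deposited holds a normalized signal from DESeq2, made with a factor for each gene and library, and served only for an alternative. Columns of the authors' own comparisons were not used.

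Genes were tested if over 10 counts were present in 2 or more libraries (17432 genes), by edgeR 4.0.16 under R 4.3.3 (TMM, quasi-likelihood test, no covariate). The threshold was the study's unadjusted p of 0.05, with Benjamini-Hochberg values over all genes tested. Standard errors are the log2 fold change over the root of the F statistic. Intervals of single libraries and of eye pairs are exact at 95% and cover counting error only. As alternatives, DESeq2 1.42.0 was run on the same genes and limma 3.58.1 on the log2 normalized signal (pseudocount 1 or 0.1), with other scalings and filters, a block and each library left out. The scripts were tested on simulated data.

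Eyes were paired by the library numbers of the count table and the study's supplement, taken as mouse numbers. Over 17432 genes, which are not independent, deviations from the group means correlated at 0.247 for FDM 1 with Control 1, at 0.0998 for FDM 3 with Control 3 and at 0.163 for FDM 3 with Control 2, the pair of the labels. With 2 FDM libraries their deviations are mirror images, so that these correlations do not settle the second pair. The refractive errors of the labels, set against the mean and SD of the shift that the study reports, go with FDM 3 and Control 3. Replicates are eyes of separate mice within a group.

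The 9 members and all lists were chosen with earlier results of these data known. Named beside the members are Ifit3b, Psmb5, Psmb6, Psmb7, Psmb10 and, in each list, genes past the threshold (up to 4), otherwise the gene with the smallest p, and the gene most abundant per kilobase. Oas1a, Cxcl10, Cd74, H2-Aa and H2-DMb1 are exceptions. Positions are from GENCODE M21 (GRCm38), which held 33585 of 33635 gene identifiers. In the marker lists, RPE, lens and retinal lists served to check the tissue, and red blood cell markers summed to 33.0 to 47.6 CPM.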

Additional observations from a re-analysis of the deposited data

How the results depend on the processing

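The lowest counts among the members were 53 to 91 a library for Isg15 and 31 to 72 for Psmb9. For the 9 members, 117 of 126 recomputed log2 fold changes kept their direction and side of the threshold. The number of members past the threshold, 0, was 1 (Psmb9) when more than 10 counts were asked in all libraries. It was also 1 (Psmb9, unadjusted p = 0.0283 in edgeR) with the numbers of the labels as the replicate block. That block pairs FDM 3 with Control 2, which the refractive errors do not bear out. The number of members was 0 with each control library left out. With the mouse numbers as the replicate block, 1261 of all genes and 11 of the lists passed, against 281 and 2, the share higher in FDM was 49.3% against 28.1%, and no member was called. With the label numbers as the block 439 of all genes passed. Without a count filter 498 genes and 4 of the lists passed, with DESeq2 172 and 1, and with library totals 1 of the lists. Leaving out a library gave 146 (without Control 3) to 944 (without Control 1) of all genes, and 1 (without Control 3) to 13 (without FDM 3) of the lists. Without Control 2, 550 of all genes and 3 of the lists passed. With 1 FDM library left, its spread was taken from the controls, so the numbers of genes passing in those fits are not given. Members higher in the FDM eye of mouse 3 numbered 5 rather than 3 with the normalized counts. The direction turned with the label block for H2-D1 (0.021), Ifit3 (−0.0032), Psmb5 (0.017) and Ifnz (−0.077), and with the mouse block for Tbk1 (0.016), H2-DMa (−0.0026) and Psmb10 (−0.014). With a library left out the log2 fold change ran from −0.015 to 0.035 in H2-K1, −0.067 to 0.027 in H2-D1, −0.26 to 0.29 in Ifit3, −0.12 to 0.45 in Isg15, −0.13 to 0.024 in Psmb5, −0.73 to 0.78 in Ifnz, −0.0021 to 0.11 in Irf3, −0.10 to 0.026 in Tbk1, −0.061 to 0.20 in H2-DMa, −0.058 to 0.30 in Ifit3b and −0.13 to 0.19 in Psmb10. The cause was not tested, beyond fewer samples or other genes in the fit.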
